A study of Homo sapiens with 12 samples.

Results

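Epithelioid hemangioendothelioma, a vascular sarcoma, carries a gene fusion that joins the start of TAZ to the end of CAMTA1 or, in other tumours, the start of YAP to the end of TFE3. This report follows the 4 parent genes of the fusions (WWTR1, which codes for TAZ, CAMTA1, YAP1 and TFE3) and their 4 paralogs (CAMTA2, TFEB, MITF and TFEC, with WWTR1 and YAP1 paralogs of each other). The members were taken by gene symbol from the deposited table of counts, which gave 8 genes of 58735 gene IDs. Of these 8 genes, 7 passed the filter on low counts (5 counts or more on average over the 12 libraries) and were among the 18415 genes tested, and TFEC did not pass.

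The cells were SW872, an established human liposarcoma line, with stable expression of a fusion, TAZ-CAMTA1 in the TC line and YAP-TFE3 in the YT line. Each fusion line carried a non-targeting hairpin (shNT), a hairpin against YEATS2 (shYEATS2) or a hairpin against ZZZ3 (shZZZ3), with 2 libraries in each of the 6 groups. Both targets are members of ATAC, a complex that acetylates histones, and the comparisons ask what loss of either subunit does to each fusion line. The fusions were double Flag-tagged coding sequences in a pBabeNeo retroviral vector and the lines were selected as pools. No line without a fusion was analysed here, so each line served as the reference for the other. For other sequencing of the study the lines that contain CAMTA1 were harvested before confluence and the others at confluence; if that was done here, it cannot be told apart from the fusion. The study calls the pairs of libraries biological duplicates and describes its sequencing replicates as cells transduced apart from each other. Whether that holds for the fusion, the hairpin or both is not stated, and the p-values measure the spread between these libraries.

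Total counts were between 17451893 and 29294805 per library. Levels are given as CPM, that is, counts divided by the TMM-adjusted size of the library and put on 1 common scale. The YEATS2 hairpin brought mean YEATS2 from 118 to 40.3 CPM in TC cells and from 116 to 36.2 CPM in YT cells, and it fell in both lines (adjusted p = 0.0138 and 1.04e-04, edgeR). The ZZZ3 hairpin brought mean ZZZ3 from 43.0 to 22.3 CPM in TC cells, which did not pass (adjusted p = 0.45), and from 60.2 to 21.1 CPM in YT cells, which did (adjusted p = 0.0453, edgeR). Under the YEATS2 hairpin mean ZZZ3 was 41.6 CPM in TC cells (-0.05 on the log2 scale, adjusted p = 1) and 31.0 CPM in YT cells (-0.95, adjusted p = 0.13, edgeR), and neither difference from shNT passed. Summed mesenchymal markers (VIM, COL1A1, COL6A1, FN1) were between 5113 and 11754 CPM in a library, while summed adipocyte markers (ADIPOQ, FABP4, PLIN1, LEP) were between 0.325 and 1.6 CPM with LEP at 0 in every library. The defining markers of fat cells were near 0 in this liposarcoma line. The 2 libraries of TC shNT and of YT shZZZ3 differed from each other more than other pairs did, with an SD of the log2 difference over 13258 genes of 0.622 and 0.559 against 0.214 to 0.513 in the other 4 groups, and in these 2 groups the difference followed the GC content of the gene (r = 0.798 and 0.711 across genes, which are not independent replicates).

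YAP and TAZ are transcriptional co-activators of the Hippo pathway. The LATS kinases phosphorylate them and keep them in the cytoplasm, and in the nucleus they bind TEAD transcription factors. CAMTA1 and CAMTA2 are calmodulin-binding transcription activators. TFE3, TFEB, MITF and TFEC form the MiT/TFE family of basic helix-loop-helix leucine zipper factors, which bind DNA as dimers within the family and drive lysosomal and autophagy genes, and mTORC1 acting through Rag GTPases on the lysosome holds them in the cytoplasm. MITF is best known as a regulator of melanocytes.

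A count for a parent gene can hold reads from the endogenous transcript and reads from the part of that gene carried by the fusion, and the counts per gene do not separate them. On the MANE Select transcripts of GENCODE release 44 (GRCh38), the YAP1 part of YAP-TFE3, exon 1, covers 321 of 1512 coding bases (21.2%), or 5.94% of the transcript. The TFE3 part, exons 4 to 10, covers 1191 of 1725 coding bases (69.0%), or 36.2% of the transcript. For TAZ-CAMTA1, WWTR1 through exon 2 would cover 431 of 1200 coding bases (35.9%) and through exon 3 it would cover 568 (47.3%), and CAMTA1 from exon 9 on would cover 4214 of 5019 (84.0%), or 50.7% of the transcript. Exon 9 alone holds 36.8% of the CAMTA1 coding bases, and the breakpoint inside CAMTA1 is not given in the sources used here, so the CAMTA1 values are upper limits if it lies in that exon. The methods of the study do not say which of the 2 WWTR1 exons ends the TAZ part of the construct. The 3′ parents therefore lend a larger share of their own transcript to a fusion than the 5′ parents do.

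The 30 bases of reference coding sequence on either side of the YAP-TFE3 junction are shown because they mark where the parent genes meet. YAP1 exon 1 ends at chr11:102111140-102111169 on the + strand and TFE3 exon 4 begins at chrX:49038413-49038442 on the - strand (GRCh38), and both exons hold a whole number of codons.
YAP1, last 30 bases of exon 1: ccgccggagcccaaatcccactcccgacag
TFE3, first 30 bases of exon 4: gtgcagacccatctggagaacccaacgcgc

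The likeness of the paralogs sets whether reads of 75 bases can be told apart. The longest run of identical bases was 21 between WWTR1 and YAP1 and 19 between CAMTA1 and CAMTA2. Within the MiT/TFE family it was between 13 bases (TFEB and TFEC) and 25 bases (TFE3 and TFEB), so no run reached the length of a read. The family likeness is seen best in a 76-base coding exon, one of those that code for the helix-loop-helix region, which lies in the part of TFE3 that YAP-TFE3 keeps. It is exon 8 of TFE3 (chrX:49033465-49033540, - strand), exon 7 of TFEB (chr6:41687094-41687169, - strand), exon 8 of MITF (chr3:69956455-69956530, + strand) and exon 6 of TFEC (chr7:115950874-115950949, - strand), all in GRCh38. Capitals mark the 42 positions with the same base in all 4 genes.
TFE3: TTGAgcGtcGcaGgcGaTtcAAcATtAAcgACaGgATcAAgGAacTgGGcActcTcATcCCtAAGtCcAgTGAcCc
TFEB: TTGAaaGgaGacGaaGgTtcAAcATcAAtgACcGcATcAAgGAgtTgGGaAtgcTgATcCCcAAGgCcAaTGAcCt
MITF: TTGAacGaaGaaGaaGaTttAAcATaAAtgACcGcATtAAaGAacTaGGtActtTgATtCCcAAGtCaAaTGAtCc
TFEC: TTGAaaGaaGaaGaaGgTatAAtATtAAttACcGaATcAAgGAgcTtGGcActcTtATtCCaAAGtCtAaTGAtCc
TFEB shared 53 of the 76 positions with TFE3, MITF 54 and TFEC 53. Genes whose annotated span overlaps a member, on either strand, held at most 0.313% of that member's counts.

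Of the 8 genes, TFE3, WWTR1 and YAP1 were the most abundant and TFEC was at the floor of detection. Per kilobase of the MANE transcript, TFE3 had a median of 57.7 CPM per kb over the 12 libraries (37.6 to 72.8), WWTR1 37.9 (31.5 to 66.3) and YAP1 34.5 (24.7 to 42.7). The ranges of these 3 neighbours overlapped. The CAMTA genes followed, in ranges that overlapped each other, with a median of 11.2 CPM per kb for CAMTA2 (9.22 to 16.0) and 5.44 for CAMTA1 (2.79 to 18.6). TFEB had a median of 7.15 CPM per kb (4.57 to 9.38), and its range overlapped that of CAMTA1, the neighbour in the order of means. MITF lay below both in its median, 1.40 CPM per kb (0.978 to 3.80). Its range overlapped that of CAMTA1 but not that of TFEB. TFEC had between 0 and 2 counts in a library, which is under the floor of 3 counts (0.106 to 0.173 CPM), so no level or fold is given for it. Measured per kilobase of all annotated exons, YAP1 came before WWTR1 and TFE3 remained first.

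The position of CAMTA1 in this order differed between the lines. Per kilobase it stood above CAMTA2 in TC shZZZ3, where the ranges did not overlap, and below CAMTA2 and TFEB in all 3 YT groups. In YT shYEATS2 it stood below MITF as well. TFE3 had the highest mean of the 8 genes in every group, and it held between 83.4% and 90.4% of the summed MiT/TFE signal per kilobase in a library. TFEB held 7.72% to 14.1% and MITF 1.44% to 5.02%.

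**Figure D1:**
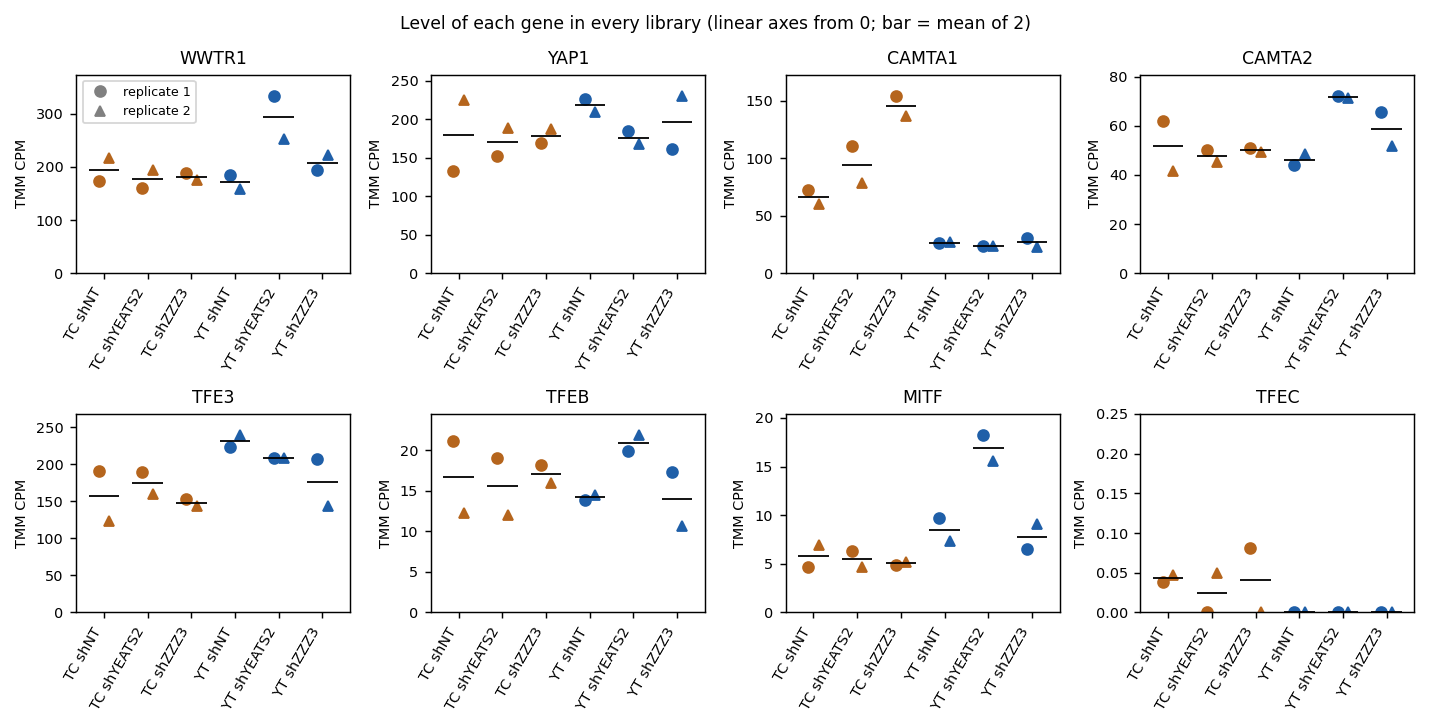
Level of each of the 8 genes in every library, as TMM-normalised CPM on linear axes that start at 0 and differ in scale between panels; circles are replicate 1, triangles replicate 2, black bars the mean of 2, brown the TC line and blue the YT line. All 6 TC values of CAMTA1 (60.1 to 154) lie above all 6 YT values (23.2 to 30.4), WWTR1 and MITF are highest in YT shYEATS2, and TFEC stays at 0 to 2 counts.

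CAMTA1 was lower in YT than in TC cells under every hairpin. In the order replicate 1 and replicate 2, CAMTA1 in TC cells was 72.4 and 60.1 CPM with shNT, 110 and 78.2 with shYEATS2, and 154 and 137 with shZZZ3. In YT cells it was 26.2 and 27.1 CPM in shNT, 23.6 and 23.9 in shYEATS2, and 30.4 and 23.2 in shZZZ3. No YT library reached the lowest TC library, and the TC values spread more widely over the hairpins than the YT values. The log2 fold change, YT against TC, was -1.31 ± 0.22 (SE) under shNT, where 9.23% of all genes tested were called and CAMTA1 was the 1 member called, beside values of 3 of 7 members and 51.3% of all genes that did not overlap (adjusted p = 0.0034, edgeR quasi-likelihood test with Benjamini-Hochberg adjustment). It was -1.99 ± 0.22 under shYEATS2 (adjusted p = 1.93e-04, edgeR) and -2.44 ± 0.22 under shZZZ3 (adjusted p = 3.45e-04, edgeR). Averaged over the 3 hairpins it was -1.91, with a 95% interval from -2.19 to -1.64. The call held in every alternative and with any library left out, where the averaged value was between -1.99 and -1.83. TC cells carry CAMTA1 sequence in their fusion and YT cells do not.

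TFE3, whose sequence is carried by the YT fusion, differed less between the lines than CAMTA1 on the log2 scale. In TC cells it was 191 and 124 CPM with shNT, 189 and 160 with shYEATS2, and 153 and 144 with shZZZ3. In YT cells it was 223 and 239 CPM in shNT, 208 and 209 in shYEATS2, and 207 and 144 in shZZZ3. The lines did not overlap under shNT or shYEATS2, as for 51.3% and 59.7% of all genes, but overlapped under shZZZ3. The log2 fold change, YT against TC, was 0.56 ± 0.23 (SE) under shNT (adjusted p = 0.165, edgeR) and 0.35 ± 0.13 averaged over the hairpins (adjusted p = 0.113, edgeR, 95% interval before adjustment 0.06 to 0.65), so neither passed. TFE3 has a GC content of 57.9% and was higher in replicate 1 than in replicate 2 by 0.62 (log2) in TC shNT and by 0.52 in YT shZZZ3, the pairs that differed along GC. With the GC trend of each library removed, which raised the number of all genes called under shNT from 1699 to 3414, TFE3 was higher in YT under shNT (0.77, adjusted p = 5.58e-04, edgeR) and over the hairpins (0.43, adjusted p = 5.21e-04, edgeR). Without TC shNT replicate 1 the same comparisons gave 0.88 (adjusted p = 0.0418) and 0.46 (adjusted p = 0.0174, edgeR), and without YT shZZZ3 replicate 2 the second gave 0.42 (adjusted p = 0.0486, edgeR).

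The 5′ parents did not separate the lines under shNT. YAP1 was 133 and 225 CPM in TC shNT and 226 and 210 in YT shNT, and the values overlapped. Over the 3 hairpins the log2 fold change of YAP1, YT against TC, was 0.16 with a 95% interval from -0.16 to 0.47 (adjusted p = 0.556, edgeR). WWTR1 was 174 and 216.02 CPM in TC shNT and 185 and 159 in YT shNT. Its log2 fold change was -0.18 under shNT (95% interval -0.62 to 0.26, adjusted p = 0.625, edgeR) and 0.25 over the hairpins (95% interval -0.005 to 0.50, adjusted p = 0.202, edgeR). YT cells carry the first YAP1 exon and TC cells the first coding part of WWTR1. Differences of a size within these intervals remain compatible with the values.

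Among the paralogs MITF was higher in YT than in TC. MITF in TC cells was 4.69 and 6.93 CPM with shNT, 6.31 and 4.72 with shYEATS2, and 4.91 and 5.24 with shZZZ3. In YT cells it was 9.71 and 7.30 CPM in shNT, 18.2 and 15.5 in shYEATS2, and 6.48 and 9.14 in shZZZ3. The 2 groups did not overlap under any of the hairpins. Neither did those of 51.3% of all genes under shNT, 59.7% under shYEATS2 and 40.3% under shZZZ3. The log2 fold change was 0.55 under shNT (adjusted p = 0.265), 1.59 ± 0.28 (SE) under shYEATS2 (adjusted p = 0.00362) and 0.61 under shZZZ3 (adjusted p = 0.413, edgeR). Averaged over the hairpins it was 0.92 with a 95% interval from 0.56 to 1.28 (adjusted p = 0.00357, edgeR), where 12.4% of all genes were called and 2 of the 7 members, MITF and CAMTA1.

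Markers of other cell types moved between the lines as well, and their part in the results was not tested. Of all genes, 12.4% were called between the lines over the hairpins, 12.2% under shYEATS2 and 2.62% under shZZZ3. Of 5 melanocyte markers 3 were tested, TYR was at 0 in every library, and the list summed to 2.41 to 18.7 CPM. Of the 3 tested, 1 was called over the hairpins, TYRP1, a pigment enzyme gene, which was higher in YT (2.01, adjusted p = 7.70e-06, edgeR) with group means of 0.276 to 2.84 CPM in TC and 3.26 to 7.27 in YT. DCT, another pigment enzyme gene, had a mean of 12.01 CPM in YT shZZZ3 and of 1.14 to 1.83 in the other groups, and was called between the lines under shZZZ3 (3.18, adjusted p = 0.0314, edgeR). Macrophage and osteoclast markers summed to 23.3 to 109 CPM, and of 3 tested 1 was called over the hairpins, ACP5, with group means of 22.3 to 31.0 CPM in TC and 64.9 to 100.2 in YT (1.65, adjusted p = 4.43e-05, edgeR). Endothelial markers summed to 19.2 to 112 CPM, and 2 of 3 were called higher in YT than in TC under shZZZ3, PECAM1 (2.91) and VWF (1.71), while CDH5 was called lower in YT under shYEATS2 (-2.34). VWF was low, with means of 0.906 CPM in TC shZZZ3 and 3.11 in YT shZZZ3. With shZZZ3 in YT cells PECAM1 rose to a mean of 20.8 CPM (3.08) and CDH5 to 83.2 CPM (1.93, adjusted p = 0.0121, edgeR). In that comparison 10% of all genes were called. Epithelial markers summed to 215.7 to 740 CPM, of which KRT18 alone held 215 to 739. EPCAM was at most 1.91 CPM and CDH1 at most 0.65. Of the 3, CDH1 was called, lower in YT under shZZZ3. Its mean there was 0.592 CPM in TC and 0.0605 in YT. The YT mean is under the floor of 3 counts, so no fold is given for it.

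CAMTA2 and TFEB did not pass in any comparison of the lines with the settings described. Under shYEATS2 CAMTA2 was 50.1 and 45.1 CPM in TC and 72.2 and 71.3 in YT, with a log2 fold change of 0.59 (adjusted p = 0.0956, edgeR). Over the hairpins it passed with the GC trend removed (0.31, adjusted p = 0.00443, edgeR). Under shYEATS2 it passed with the GC trend removed (0.55, adjusted p = 0.00381) and with the 2 groups fitted alone (0.61, adjusted p = 0.034, edgeR). TFEB was 21.1 and 12.3 CPM in TC shNT and 13.9 and 14.5 in YT shNT. Its fold change over the hairpins was -0.03 on the log2 scale (95% interval -0.43 to 0.36, adjusted p = 0.937, edgeR).

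Under shYEATS2, 3 of the 7 members were called between the lines, CAMTA1 lower in YT and MITF and WWTR1 higher, beside 12.2% of all genes, and the values of 6 of 7 did not overlap, beside 59.7% of all genes. WWTR1 was 161 and 194 CPM in TC shYEATS2 and 334 and 253 in YT shYEATS2, a log2 fold change of 0.73 ± 0.20 (SE, adjusted p = 0.0362, edgeR). This call was lost with library totals in place of TMM (0.64, adjusted p = 0.0837) and without any 1 of the 4 libraries, namely without TC shYEATS2 replicate 1 (0.59) or 2 (0.86) or YT shYEATS2 replicate 1 (0.51) or 2 (0.91, adjusted p between 0.0536 and 0.299, edgeR). Under shZZZ3, 1 member was called, CAMTA1, beside 2.62% of all genes, and the values of 4 of 7 did not overlap, beside 40.3% of all genes.

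**Figure D2:**
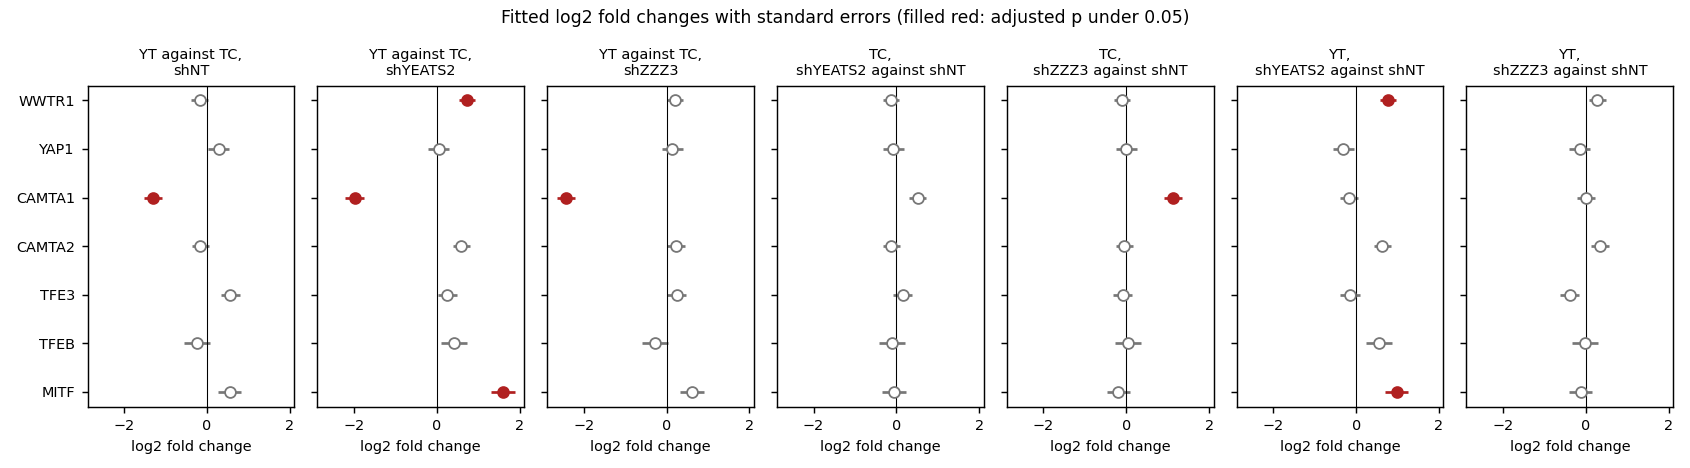
Fitted log2 fold changes of the 7 tested genes in 7 comparisons, with bars of 1 SE; filled red points have an adjusted p under 0.05 and open grey points do not. CAMTA1 lies left of 0 in all 3 comparisons of YT with TC (-1.31, -1.99 and -2.44) and right of 0 in TC with shZZZ3 (1.13), and WWTR1 (0.77) and MITF (0.98) pass in YT with shYEATS2.

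In the TC line 1 member passed in the knock-down comparisons. With shZZZ3, CAMTA1 rose from 66.3 ± 8.75 to 146 ± 12.4 CPM (SD, n = 2), and CAMTA1 was the 1 of 7 members whose groups did not overlap, beside 36.6% of all genes. This change was 1.13 ± 0.21 on the log2 scale (SE, adjusted p = 0.0233, edgeR), and 1.53% of all genes were called. The other 6 members had log2 fold changes between -0.19 (MITF) and 0.03 (TFEB). The CAMTA1 call was lost when these 2 groups were fitted alone (1.10, adjusted p = 0.0927) and without TC shNT replicate 2 (0.98, adjusted p = 0.0943), TC shZZZ3 replicate 1 (1.04, adjusted p = 0.235) or TC shZZZ3 replicate 2 (1.22, adjusted p = 0.137, edgeR). With shYEATS2, CAMTA1 was 94.3 ± 22.8 CPM, above both shNT libraries (1 of 7 members without overlap, beside 20.2% of all genes), with a log2 fold change of 0.51 (adjusted p = 0.874, edgeR). None of the 7 members was called in this comparison (1 at an unadjusted p under 0.05, CAMTA1), and 0.0434% of all genes were.

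In the YT line CAMTA1 stayed between 23.2 and 30.4 CPM across the hairpins. Its log2 fold change was -0.17 with shYEATS2 (95% interval -0.64 to 0.30) and 0.01 with shZZZ3 (95% interval -0.46 to 0.47). The difference between the lines in the shZZZ3 effect on CAMTA1, YT minus TC, was -1.13 ± 0.30 (SE, adjusted p = 0.0617, edgeR) and did not pass, where 4.32% of all genes did. It passed in DESeq2 (adjusted p = 0.0148), with library totals (0.0341), without the filter on low counts (0.0483), with the GC trend removed (0.0323), with the replicate block (0.0235) and without TC shNT replicate 1 (adjusted p = 0.0495, edgeR). The difference in the shYEATS2 effect on CAMTA1 was -0.68 (adjusted p = 0.194, edgeR).

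In YT cells 2 members rose with shYEATS2, WWTR1, which codes for the co-activator TAZ, and MITF. WWTR1 went from 172 ± 18.7 to 294 ± 57.2 CPM (SD, n = 2), a log2 fold change of 0.77 ± 0.20 (SE, adjusted p = 0.0198, edgeR). MITF went from 8.51 ± 1.70 to 16.9 ± 1.91 CPM, a log2 fold change of 0.98 ± 0.28 (SE, adjusted p = 0.0296, edgeR). These are 2 of 7 members beside 20.7% of all genes called, and the values of all 7 members did not overlap between the groups beside 74.2% of all genes, so the counts lay near the background. The median log2 fold change of the 7 members was 0.55 and that of all genes -0.01. Without regard to sign the medians were 0.55 and 0.47.

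The other members in this comparison did not pass. CAMTA2 was 43.98 and 48.5 CPM with shNT and 72.2 and 71.3 with shYEATS2, a log2 fold change of 0.63 ± 0.21 (SE, adjusted p = 0.0539, edgeR). It passed in 6 of the alternatives, with adjusted p between 4.89e-04 and 0.0462, and its value with the GC trend removed was 0.36 (adjusted p = 0.0254, edgeR). TFEB was 13.9 and 14.5 CPM and then 19.9 and 21.9 (0.55, adjusted p = 0.238, edgeR). YAP1 was 226 and 210 CPM and then 184 and 168, a log2 fold change of -0.31 (adjusted p = 0.41, edgeR). Both passed with the 2 groups fitted alone, TFEB at 0.55 (adjusted p = 0.00723) and YAP1 at -0.31 (adjusted p = 0.0193, edgeR). TFE3 was 223 and 239 CPM and then 208 and 209, a log2 fold change of -0.15 (adjusted p = 0.675), which passed with the GC trend removed (-0.40, adjusted p = 0.0137, edgeR).

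Both calls depended on the libraries. WWTR1 was not called without YT shNT replicate 1 (0.89, adjusted p = 0.077) or 2 (0.68, 0.146) or without YT shYEATS2 replicate 1 (0.57, adjusted p = 0.16, edgeR). MITF was not called without any 1 of the 4 libraries, with values of 1.20 and 0.81 without YT shNT replicate 1 and 2 and of 0.87 and 1.10 without YT shYEATS2 replicate 1 and 2 (adjusted p between 0.0874 and 0.202, edgeR), nor with library totals in place of TMM (0.93, adjusted p = 0.0613, edgeR).

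The same hairpin left WWTR1 and MITF with small differences in TC cells, where their log2 fold changes were -0.14 and -0.07. The difference of the shYEATS2 effect between the lines, YT minus TC, was 0.91 ± 0.28 for WWTR1 (adjusted p = 0.0701) and 1.05 ± 0.40 for MITF (SE, adjusted p = 0.134, edgeR). No member passed this interaction test (4 at an unadjusted p under 0.05), and 9.37% of all genes did. WWTR1 passed in DESeq2 (adjusted p = 0.0319), without the filter on low counts (0.0361), with the GC trend removed (0.00264) and without TC shNT replicate 1 (1.08, adjusted p = 0.0372, edgeR). MITF passed with the GC trend removed (1.28, adjusted p = 0.00824, edgeR), as did TFE3 (-0.57, adjusted p = 0.0216, edgeR). CAMTA2, at 0.75 with all libraries (adjusted p = 0.147), passed without TC shNT replicate 2 (1.03, adjusted p = 0.0181, edgeR).

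With shZZZ3 in YT cells no member was called in edgeR (0 at an unadjusted p under 0.05), beside 10% of all genes. The values of WWTR1, CAMTA2 and TFE3, 3 of 7 members, did not overlap between the groups, beside 52.7% of all genes. TFE3 went from 223 and 239 CPM to 207 and 144, a log2 fold change of -0.40 ± 0.23 (SE, adjusted p = 0.325), and passed with the GC trend removed (-0.54, adjusted p = 0.00433, edgeR). MITF, which was called with shYEATS2, had a log2 fold change of -0.13 here (95% interval -0.74 to 0.49). The comparisons of shYEATS2 and shZZZ3 share their shNT libraries.

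Ratios of 2 genes within a library do not depend on how libraries are scaled. The log2 ratio of CAMTA1 to CAMTA2 was 0.96 ± 0.54 in the 6 TC libraries and -1.17 ± 0.36 (SD, n = 6) in the 6 YT libraries, and all TC values lay above 0 and all YT values below it. The difference was -2.13 (exact permutation test of the line labels within each hairpin, two-sided p = 0.00926, the smallest this design can give, 0.0231 adjusted over 5 ratios). The log2 ratio of CAMTA1 to WWTR1, the 3′ and 5′ parents of the TC fusion, differed by -2.15 (exact permutation p = 0.00926, 0.0231 adjusted). The difference of the CAMTA1 to CAMTA2 ratio was -1.17 under shNT, -2.56 under shYEATS2 and -2.67 under shZZZ3.

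The ratios for the YT parents did not pass. The log2 ratio of TFE3 to TFEB was 3.29 ± 0.23 in TC and 3.67 ± 0.32 in YT (SD, n = 6), a difference of 0.38 (exact permutation p = 0.0556, 0.0926 adjusted). Within the hairpins it was 0.77 under shNT, -0.20 under shYEATS2 and 0.55 under shZZZ3, so the lines did not differ in the same direction under all of them. The ratio of TFE3 to YAP1 differed by 0.19 (exact permutation p = 0.509, 0.637 adjusted), and it changed sign without TC shNT replicate 2 (-0.038). These 2 genes differ in GC content (57.9% and 43.3%). In the pairs that differed along GC the log2 ratio was 0.52 and -0.87 (TC shNT) and 0.36 and -0.68 (YT shZZZ3). The part of GC content in the ratios was not tested. The ratio of WWTR1 to YAP1 differed by 0.08 (exact permutation p = 0.713, 0.713 adjusted). That last ratio lay at -0.51 under shNT, 0.67 under shYEATS2 and 0.08 under shZZZ3 as a difference of YT from TC, and within YT the TAZ gene took 44.8% and 46.7% of the summed YAP1 and WWTR1 signal per kilobase in shNT and 61.8% and 66.02% in shYEATS2.

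**Figure D3:**
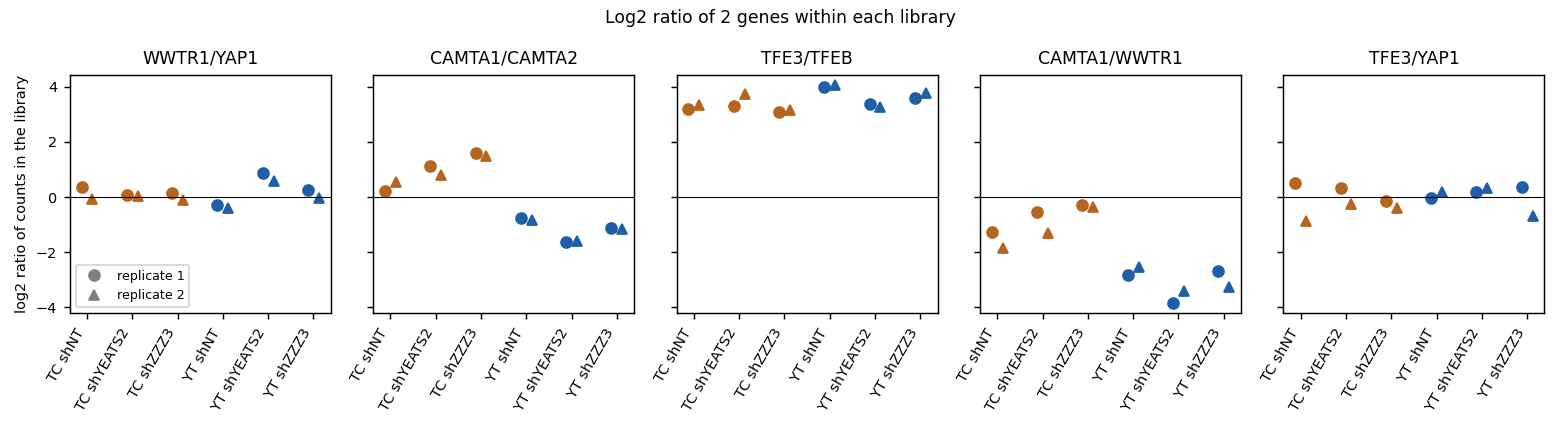
Log2 ratio of the counts of 2 genes within each of the 12 libraries, by group; circles are replicate 1 and triangles replicate 2, brown the TC line and blue the YT line. CAMTA1/CAMTA2 lies between 0.23 and 1.60 in TC and between -1.61 and -0.74 in YT, and CAMTA1/WWTR1 is lower in every YT library than in any TC library, while the other 3 ratios overlap between the lines.

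The spread between the 2 libraries of a group fell unevenly on the members. In TC shNT the members with a GC content between 57.9% and 60.4% (TFE3, CAMTA2 and TFEB) were higher in replicate 1 by 0.57 to 0.78 on the log2 scale, and those between 40.6% and 43.3% (MITF, WWTR1 and YAP1) were lower by 0.32 to 0.76. YT shZZZ3 showed the same split, with 0.34 to 0.70 for the first 3 and -0.51 to -0.21 for the others. In YT shNT and YT shYEATS2 no member with the higher GC content differed by more than 0.14 between replicates. Those with the lower GC content were higher in replicate 1 in both groups. The differences in YT shNT and YT shYEATS2 were 0.41 and 0.23 for MITF, 0.22 and 0.40 for WWTR1, and 0.11 and 0.13 for YAP1. The part of GC content in the differences between groups was not tested beyond the fit with the trend removed.

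**Figure D4:**
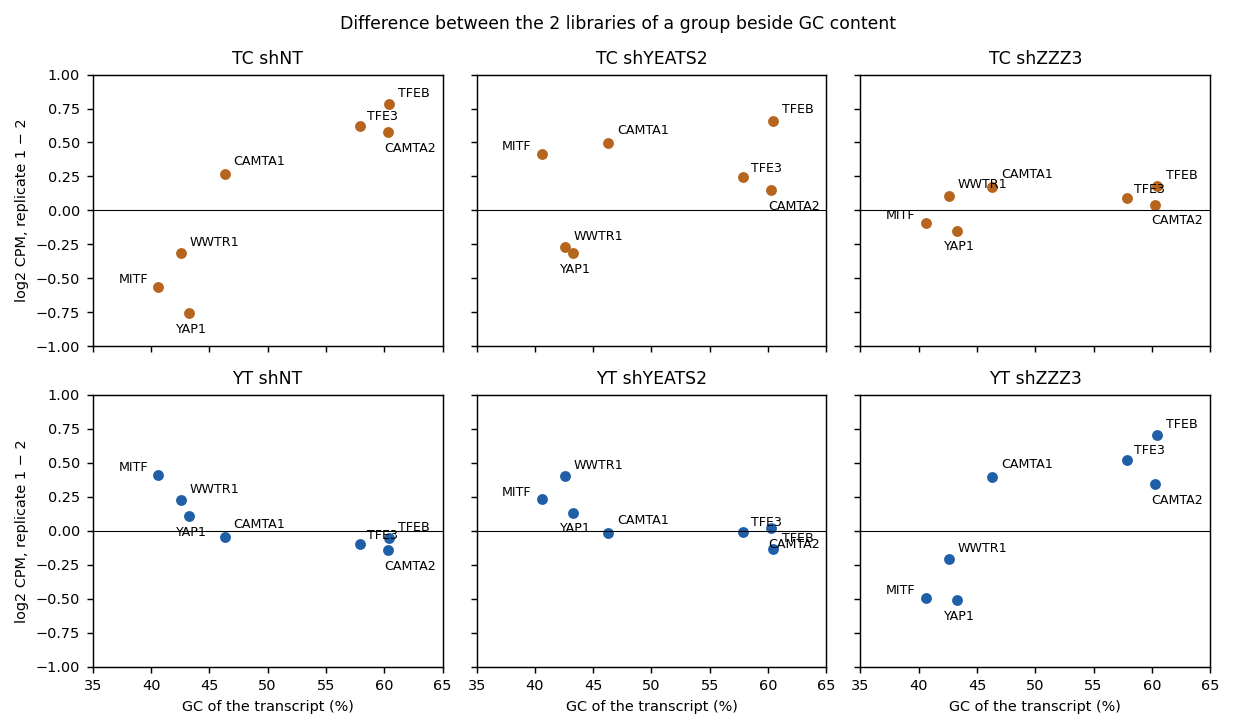
Log2 difference of CPM between replicate 1 and replicate 2 of each group against GC content, for the 7 tested genes. The GC content (axis label: GC of the transcript) is that of all annotated exons of the gene. Brown is the TC line and blue the YT line. In TC shNT and YT shZZZ3 the points run from below 0 at 40.6% GC (MITF, -0.56 and -0.50) to above 0 at 60.4% GC (TFEB, 0.78 and 0.70).

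The genes around the members in their pathways were read from lists. Of 16 regulators of YAP and TAZ and TEAD partners, 1 was called higher and 0 lower in YT shNT against TC shNT, namely LATS2, which codes for a kinase that restrains YAP and TAZ (0.85 on the log2 scale, adjusted p = 0.0182, edgeR), beside 9.23% of all genes. Within YT cells 1 of these 16 rose and 3 fell with either hairpin, beside 20.7% of all genes called with shYEATS2 and 10% with shZZZ3. LATS2 fell with shYEATS2 (-1.24) and with shZZZ3 (-1.24), TEAD4 fell with shYEATS2 (-1.28) and AMOTL2, an angiomotin gene, with shZZZ3 (-1.26). In TC cells 0 of 16 were called with either hairpin (edgeR), where 0.0434% and 1.53% of all genes were. The list's median log2 fold change was between -0.20 and 0.07 in the 4 knock-down comparisons, and that of all genes between -0.01 and 0.01.

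Of 14 regulators of the MiT/TFE factors (folliculin, Rag GTPase, mTORC1 and Ragulator genes), 2 were called higher in the YT line under shNT and 0 lower, beside 9.23% of all genes. RRAGD, a Rag GTPase gene that is itself a known target of these factors, had a mean of 10.7 CPM in TC shNT and 69.9 in YT shNT, a log2 fold change of 2.70 ± 0.21 (SE, adjusted p = 3.05e-05, edgeR), and RRAGC was higher by 0.84. RRAGD fell in YT cells with shYEATS2 (-2.33 ± 0.21) and shZZZ3 (-1.42 ± 0.20), to means of 13.8 and 25.97 CPM. Of the 14, 3 fell with shYEATS2, RRAGD and the folliculin partners FNIP1 (-1.18) and FNIP2 (-1.01), beside 20.7% of all genes, and 1 fell with shZZZ3, beside 10%. Over the hairpins 3 were higher in YT, FNIP2 (0.62), RRAGC (0.47) and RRAGD (1.09), beside 12.4% of all genes. In TC cells 0 of the 14 were called with either hairpin (edgeR). Of 6 MiT/TFE targets, 1 was called in YT shNT against TC shNT, the lysosomal glycoprotein gene GPNMB, with means of 86.3 and 428 CPM (2.31, adjusted p = 5.32e-05, edgeR). Over the hairpins 3 were higher, GPNMB (1.08), and the lysosomal enzyme genes NEU1 (0.87) and CTSD (0.72), beside 12.4% of all genes. In YT cells GPNMB fell with shYEATS2 (-1.90) and with shZZZ3 (-1.71), and so did ATP6V1H, a vacuolar ATPase gene (-0.96 and -0.64). The other 4 did not pass there, and 20.7% and 10% of all genes were called. In TC cells 0 of the 6 targets were called with either hairpin (edgeR). TFE3 itself was not called between the lines under shNT or over the hairpins, nor in YT cells with either hairpin. With the GC trend removed it was called in each of these comparisons, in the same direction as GPNMB. That fit also raised the number of all genes called in each. The TFE3 count can hold reads of the fusion in YT cells, which were not separated.

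Of 5 targets of YAP and TAZ, 1 was called higher in YT shNT (AJUBA, 0.90) and 0 lower, beside 9.23% of all genes. With shYEATS2 in YT cells 2 rose (ANKRD1, 2.99, and CCN1, 0.99) and AJUBA fell (-0.92), and with shZZZ3 ANKRD1 rose (2.85) and CCN2 (-0.91) and AJUBA (-0.78) fell, that is, 3 of 5 with each hairpin, beside 20.7% and 10% of all genes. In TC cells CCN1 rose with shZZZ3 (1.49), beside 1.53% of all genes, and no target was called with shYEATS2.

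The genes whose log2 CPM followed each member most closely over the 12 libraries, among 13258 genes, are given by Pearson's r as a description. They were FRMD6 for WWTR1 (r = 0.950), MDM2 for YAP1 (r = 0.981), APCDD1 for CAMTA1 (r = 0.955) and FBH1 for CAMTA2 (r = 0.984). For the MiT/TFE genes they were CERS2 for TFE3 (r = 0.975), IGSF8 for TFEB (r = 0.971) and TOB1 for MITF (r = 0.978). CTSD, which codes for the lysosomal protease cathepsin D, was the third for TFE3 (r = 0.966). The libraries share their lines, their hairpins and the GC differences between replicates, all of which enter these values.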

How the data were processed

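Counts per gene were measured by RNA sequencing in 12 libraries, grouped from the labels alone. The deposited counts are raw whole numbers. Per the methods, the authors made stranded poly(A) libraries, sequenced paired ends of 75 bases, and ran bcbio-nextgen with HISAT2 and Salmon on hg38, with tximport for counts per gene from Salmon. Whether the deposited counts are these or come from the alignments, and how strand and multiply mapped reads were handled, is not given in the sources used here. Annotation came from GENCODE release 44 (GRCh38), which held 99.1% of the gene IDs.

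The 18415 genes that averaged 5 counts or more were fitted over all 6 groups with edgeR 4.0.16 in R 4.3.3 (TMM, robust quasi-likelihood test, prior count 2). P values were two-sided and adjusted over all genes tested, and a gene was called under 0.05. SE is the log2 fold change over the root of its F statistic, and intervals use it with the t quantile. For the ratios, 0.5 counts were added and p-values adjusted over 5 ratios. The fits were tested on simulated data. Alternatives were DESeq2 1.42.0, other scaling, no filter, the contrast's groups alone, a replicate block, GC-trend offsets, and each library left out. With 1 library left in a group, its spread is assumed to equal that of other groups. The 8 members were all named, and of each list at most 3 called genes a comparison, those with the largest change. Members and lists were chosen with earlier results of these data known. One list fixed with the others is not reported here.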

Additional observations from a re-analysis of the deposited data

Results flagged for a closer look

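No member differed between the lines in its response to a hairpin past the threshold. Of all genes tested, 9.37% passed the test of that difference for the shYEATS2 effect and 4.32% for the shZZZ3 effect. Of the genes in the lists, 20 tests of that difference (YT minus TC, on the log2 scale, edgeR, adjusted p under 0.05) passed. For the shYEATS2 effect they were LATS2 (-1.42), TEAD4 (-1.76), RRAGD (-2.88), ANKRD1 (2.27), AXL (1.38), AJUBA (-1.49), GPNMB (-1.70), ATP6V1H (-0.92) and the mesenchymal marker VIM (1.77). For the shZZZ3 effect they were LATS2 (-1.83), AMOTL2 (-2.21), RRAGD (-1.95), CCN2 (-1.74), ANKRD1 (3.10), AJUBA (-1.45) and GPNMB (-1.97), and the cell type markers VIM (1.30), COL1A1 (2.11), TYRP1 (1.86) and PECAM1 (3.97). ANKRD1 was low, with group means between 0.666 and 7.34 CPM. These differences share the shNT libraries of each line. Groups of 2 libraries were too small to look for single libraries far from the rest.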

How the results depend on the processing

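The direction of every called member held in every alternative. The number of members called moved mainly as follows. With the GC trend removed it was 4 in YT shYEATS2, 1 in YT shZZZ3, 3 in the shYEATS2 and 1 in the shZZZ3 difference between the lines, 2 in YT shNT against TC shNT and 4 over the hairpins. With the groups of a comparison fitted alone it was 0 in TC shZZZ3 and 5 in YT shYEATS2. In YT shYEATS2 against TC shYEATS2 it was 3 as reported and 2 with library totals. It was 4 in that comparison with the GC trend removed or the groups fitted alone. DESeq2, as a test or for scaling alone, called 3 in YT shYEATS2. DESeq2 and the fit without the filter called 1 member in each of the 2 differences between the lines, and library totals called 1 in the shZZZ3 difference. With single libraries left out, the count was 0 to 1 in TC shZZZ3, in YT shYEATS2 and in both differences, 1 to 2 in YT shNT against TC shNT and 2 to 3 over the hairpins.

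Whether libraries with the same replicate number were prepared together is not given in the sources used here. The 15 correlations of same-numbered deviations between groups ran from -0.438 to 0.898. They cannot settle it, because the deviations followed GC content in TC shNT and YT shZZZ3. With a replicate block 1 member was called in the shZZZ3 difference (CAMTA1, -1.14) and 3 in YT shYEATS2. For the ratios of CAMTA1 to CAMTA2 (-2.13) and to WWTR1 (-2.15), signs were also permuted within TC and YT pairs of the same hairpin and replicate number. Neither ratio was then past the threshold (adjusted exact permutation p = 0.0781, where the 64 arrangements allow a p of 0.0312 at best). The ratio of TFE3 to TFEB ran from 0.31 to 0.44 with single libraries left out, passing without TC shYEATS2 replicate 2 (0.44). The ratio of TFE3 to YAP1 ran from -0.038 to 0.42, changing sign without TC shNT replicate 2 (-0.038). The cause was not tested. Depth limits only TFEC.

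The number of all genes called, the background of the members' counts, moved with the settings as well. Its range over the alternatives was 2 to 213 in TC shYEATS2 (8 as reported), 50 to 744 in TC shZZZ3 (281), 1516 to 8784 in YT shYEATS2 (3821) and 501 to 3832 in YT shZZZ3 (1846). It was 789 to 3613 in the shYEATS2 difference (1725) and 206 to 1991 in the shZZZ3 difference (795). Between the lines it was 470 to 3414 under shNT (1699), 841 to 4461 under shYEATS2 (2242), 96 to 1214 under shZZZ3 (482) and 1363 to 4248 over the hairpins (2291). The fit with the GC trend removed gave the highest count in 6 of the 10 comparisons.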
